A study of Mus musculus with 49 samples.

Results

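The 39 genes described here act at the passage from G1 into S phase and in the copying of DNA. They were picked by name, and each of the 39 had a row in a table of 13093 genes measured in 49 single cells of the early mouse kidney. The cells came from the metanephric mesenchyme, the tissue that surrounds the ureteric bud, of Tg(Crym-EGFP)82Gsat embryos on a mixed background and of both sexes, at 11.5 days post coitum (Theiler stage TS19). Crym, whose reporter guided the microdissection, has the same expression as Six2 at this age per the labels, and a few cells from outside its boundary were taken along. Each cell was captured on a microfluidic chip (Fluidigm C1), amplified and sequenced as its own library, and the samples were not pooled. No embryo or litter is named, so the 49 cells count as 1 sample without replicates: values are descriptions, no p-value is given, and intervals (exact, Clopper-Pearson, 95%) cover counting error only.

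Before S phase, Mcm helicase rings are loaded on origins with the help of Cdc6, while geminin (Gmnn) blocks loading later in the cycle. In S phase the rings are activated with the GINS complex, primase and polymerases copy the strands, the sliding clamp Pcna holds the polymerases on DNA, and ribonucleotide reductase and thymidylate synthase supply the nucleotides. Many genes of this set are transcribed by E2F factors as cells leave G1. In the embryonic kidney, Six2 marks the nephron progenitors, which divide and form the nephrons, and Foxd1 marks the stromal progenitors around them.

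Most of these genes were detected in most cells. With detection set at 1 RPKM (a read count corrected for gene length and for the mapped reads of each cell), the median member was detected in 35 of 49 cells, against 16 of 49 for the median gene of the table. In at least 40 cells, 15 of the 39 members were detected (38.5%), against 15.4% of all genes of the table. In 20 cells or fewer, 8 members were detected (20.5%), against 57.8% of all genes. A cell held between 11 and 37 detected members, with a median of 27 (SD 7.10 over cells). Cells 27 and 44 held the fewest and cell 48 the most, and cell 27 also held endothelial genes. Of the 1911 member values, 349 were at 0 (18.3%), and only 7.54% lay between 0.5 and 2 RPKM, around the detection threshold. The median SD of log2(RPKM + 1) over the cells was 2.40 in the members, against 1.65 for all genes. These sets differ in detection, as the median of the gene medians was 14.0 RPKM in the members and 0.0839 RPKM in all genes. Whether members vary more than genes detected as widely was not tested.

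Reads per cell were estimated from the spacing of low values. With these depths, 40.8 to 49.1% of the low values of a cell came within 0.1 of whole reads, and 37 of the 1562 member values above 0 were worth less than 0.9 reads, so depths are approximate and some values are not whole reads. In 47 cells the estimate came to between 1275283 and 2798171 reads, where 1 read in a member of median length (3457 bases) is worth 0.103 to 0.227 RPKM. Cells 3 and 7 were far shallower, and there 1 read is worth about 4.54 and 3.40 RPKM, so most members at a level near 1 RPKM would go undetected in them. In turn, a single read of a median-length member counts there as detection. Cell 3 held 27 detected members and 4954 detected genes, and cell 7 held 28 and 5232. Their detection counts are thus on another scale than those of the 47 deeper cells. Detected genes numbered between 3610 and 6510 per cell. Cells 12, 25 and 27 held at least 3 genes of another cell type at 1 RPKM or more: cell 27 all 8 endothelial genes of the table, cell 25 10 of 11 ureteric bud genes and cell 12 3 of them. The span of Ccne2 on the genome, introns included, overlaps that of Ints8 by 5622 bases. The library chemistry keeps no strand, so reads from any exons shared there could not be told apart. How far the exons overlap was not measured. The same holds for shorter stretches of E2f8 (297 bases, with Gm2788) and Gins2 (118 bases, with Gse1). Nasp, Pcna and Tyms have annotated pseudogenes named after them, whose reads the counting could share with them. Pseudogenes under other names are not covered here, for these or the other members.

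**Figure D1:**
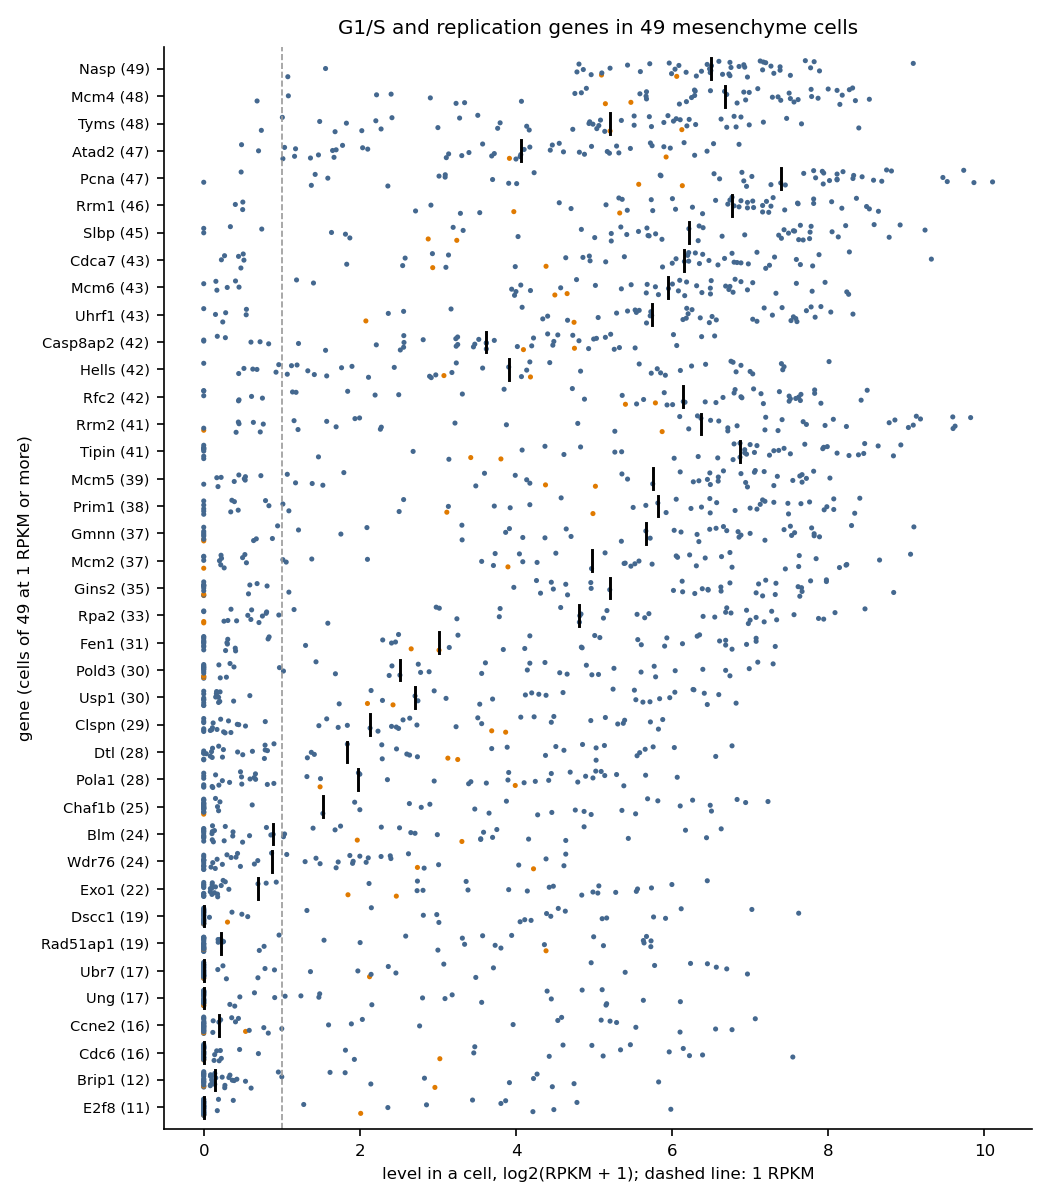
Level of each of the 39 genes as log2(RPKM + 1) in each of the 49 cells (points; orange for the shallow cells 3 and 7), with the median as a black bar and the number of cells at 1 RPKM or more in brackets. Genes run from Nasp, detected in 49 cells, to E2f8, detected in 11, and the values of most genes spread widely, as for Pcna, from 0 to 1101 RPKM.

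The 7 genes of origin licensing and the helicase were seen together in 12 cells. Mcm4, a subunit of the helicase ring, was the most widely detected, in 48 of 49 cells, and ran from 0.606 through a median of 101 to 368 RPKM. Its partner Mcm6 was detected in 43 cells (lowest 0, median 61.0, highest 306 RPKM) and Mcm5 in 39 (lowest 0, median 52.9, highest 259 RPKM). Mcm2 was more uneven: it was detected in 37 cells with a median of 30.3 RPKM and reached 531 RPKM in cell 45. Gmnn was likewise detected in 37 cells (median 49.7, highest 547 RPKM, also in cell 45), and Gins2, a GINS subunit, in 35 (median 35.8, highest 457 RPKM). Cdc6, the loading factor, was the exception in the group, detected in 16 cells with a median of 0 and at most 186 RPKM, in cell 13.

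Among the 8 genes of the clamp, the polymerases and the flap enzyme, Pcna (mm9 chr2:132075022-132078916, as the table gives it) had the highest median of all members. It was detected in 47 of 49 cells at a median of 167 RPKM, with 0 in the lowest cell and 1101 RPKM in cell 15. Rfc2, a subunit of the complex that loads the clamp, was detected in 42 cells (median 69.7, highest 361 RPKM), and Prim1, the catalytic subunit of primase, in 38 (median 55.4, highest 338 RPKM). Lower and patchier were Rpa2 of the single-strand binding complex in 33 cells (median 27.1 RPKM), the flap endonuclease Fen1 in 31 (median 7.08 RPKM), Pold3 of polymerase delta in 30 (median 4.71 RPKM) and Pola1, the catalytic subunit of polymerase alpha, in 28 (median 2.95 RPKM). Dscc1, of an alternative clamp loader, was detected in 19 cells, with a median of 0 and at most 196 RPKM, in cell 34. All 8 were detected together in 11 cells.

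The 3 genes of nucleotide supply were the most constantly detected group, with all 3 present in 38 cells. Rrm1 and Rrm2 encode the large and the small subunit of ribonucleotide reductase. Rrm1 was detected in 46 cells, from 0.324 through a median of 108 to 399 RPKM. Rrm2 ran over a wider range, with 0 in the lowest cell, a median of 81.7 and 906 RPKM in cell 45, and was detected in 41 cells. Tyms, thymidylate synthase, was detected in 48 cells at a median of 35.9 RPKM and reached 335 RPKM in cell 13.

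Fork protection and repair genes were the patchiest of the larger groups: no cell held all 8, and the median member was detected in 23 cells. Tipin, of the fork protection complex, stood above the others in 41 cells (median 116, highest 487 RPKM). Usp1, which removes ubiquitin from Pcna, was detected in 30 cells (median 5.53 RPKM) and Clspn, the checkpoint adaptor claspin, in 29 (median 3.38 RPKM). The helicase Blm was detected in 24 cells, the exonuclease Exo1 in 22, Rad51ap1, a homologous recombination factor, in 19, and Ung, which removes uracil from DNA, in 17. The helicase Brip1 was detected in 12 cells, at no more than 55.8 RPKM. The medians of these last 5 genes were all below 1 RPKM, so each was absent or under the threshold in most cells.

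Chromatin and histone supply ran from the most widely detected member, in 49 cells, down to a member in 17. Nasp, a histone chaperone, was detected in all 49 cells (lowest 1.11, median 89.8, highest 544 RPKM in cell 42). Atad2, an ATPase with a bromodomain, was found in 47 cells at the lower median of 15.7 RPKM. Slbp, which binds the stem-loop of histone messages, was detected in 45 cells (median 73.3, highest 604 RPKM). The DNA methylation factor Uhrf1 was detected in 43 (median 52.4, highest 318 RPKM), and the remodeller Hells in 42 (median 14.0, highest 257 RPKM). Cdca7, a partner of HELLS in human cells, was detected in 43 (median 70.4, highest 639 RPKM), and Casp8ap2, needed for histone gene expression, in 42 (median 11.3, highest 92.4 RPKM). Chaf1b, a subunit of the chromatin assembly factor, was seen in 25 cells, Wdr76, a WD-repeat protein, in 24 and the ubiquitin ligase Ubr7 in 17.

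The 3 genes of cycle control were the least detected. Dtl, the substrate receptor of a ubiquitin ligase that acts on Pcna-bound proteins, was found in 28 cells (median 2.58, highest 108 RPKM). Ccne2, cyclin E2, was found in 16 cells (highest 133 RPKM), and E2f8, a repressing E2F factor, in 11 (highest 62.3 RPKM). All 3 were detected together in 5 cells.

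The highest values of the members fell more often in some cells than in others. Cell 45 held the highest value of 8 members, Atad2, Ccne2, Gmnn, Mcm2, Rfc2, Rpa2, Rrm2 and Tipin. It had few detected genes (4126). Cell 13 was among the 3 highest cells for 13 members and also had the deepest library. Cell 44 had the fewest detected genes (3610) and only 11 detected members, and held the highest values of Casp8ap2, Dtl and Pold3. How often other genes of the table had their highest value in these cells was not tested.

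Levels of the members moved together across cells, though loosely. Over the 741 pairs of members, the median Spearman rho across the 49 cells was 0.24, against 0.03 over all pairs of the 10246 genes detected in at least 5 cells. Pairs with a rho above 0 made up 94.5% of member pairs, against 57.1% of all pairs. A rho of at least 0.5 was reached by 44 member pairs (5.94%), against 0.0645% of all pairs. The pairs of all genes were not matched to the members in the number of detecting cells. The 49 points of each rho share their library, its depth and its number of detected genes. For comparison, 48 genes of G2 and mitosis had a median rho of 0.55 among themselves and of 0.11 with the members.

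The closest pairs joined genes of the same and of different roles. Clspn and Atad2 had a rho of 0.74, Tyms and Rrm2 0.69, Pcna and Uhrf1 0.67, and Pcna and Hells 0.66. The lowest pair was Blm with Slbp at -0.19. Within the role groups the median rho was 0.54 for the 3 pairs of nucleotide supply, 0.34 for the 3 pairs of cycle control, 0.30 for licensing and the helicase, 0.26 for the clamp and polymerases, 0.23 for chromatin and 0.16 for fork protection and repair. Average-linkage clustering was cut into 2 to 6 groups, and the mean silhouette width was highest, at 0.140, for 2 groups, which put 38 genes together and left Nasp alone. At 6 groups it was 0.066, with 29 genes in the largest. Other ways of grouping were not tried.

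A G1/S score was given to each cell as the mean over the 39 genes of the standardised log2 level. It ran from -1.02 in cell 27, the cell with endothelial genes, to 1.07 in cell 13. Set against the score of the other 38 members, Pcna had the highest rho (0.86), ahead of Rrm2 (0.75), Atad2 (0.74), Uhrf1 and Hells (0.71 each) and Exo1 (0.70). All 39 had a rho above 0, 17 reached 0.5, and the median was 0.47. The weakest were Nasp (0.20), Brip1 and Blm (0.22 each) and Ung (0.25). Nasp was thus detected in every cell and followed the others least. The score had a rho of 0.49 with the number of genes detected in a cell and of -0.04 with its reads. With the rank trend of every member on the number of detected genes removed, the median rho of member pairs was 0.21.

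Genes outside the 39 that followed the score most closely were Chek1 (rho 0.68), the checkpoint kinase that claspin serves, Syce2 (0.68), known from the synaptonemal complex, Fam111a (0.65), Mcm3 (0.64), the phosphatase Ppm1g (0.64), Chtf18 (0.64), a subunit of the same alternative clamp loader as Dscc1, Dna2 (0.62), Dek (0.62), the kinase Cdc7 (0.61) and Cmah (0.61). Among the lowest were Slc4a2 (-0.54), Kdm1a (-0.49), Sbf2 (-0.47) and Yme1l1 (-0.44). A rho of 0.5 or more with the score was reached by 0.597% of the 8382 genes outside the 39 that were detected in at least 10 cells. Of 42 further replication genes on a list of their own, 40 were detected in at least 10 cells, 10 of these reached 0.5 and all 40 had a rho above 0, against 70.6% of all genes outside the 39. Their median rho was 0.39, against 0.09. In this list the ring subunits Mcm3 (45 cells, median 79.1 RPKM) and Mcm7 (45 cells, median 146 RPKM, rho 0.46) were detected about as widely as Mcm4 and Mcm6. The largest clamp loader subunit, Rfc1, was detected in 48 cells with a rho of 0.26, the dUTPase Dut in 47 (rho 0.51), Rpa3 in 47 (rho 0.27), Pola2 in 47 (rho 0.34), Orc6 of the origin recognition complex in 46 (rho 0.40) and the kinase Cdk2 in 46 (rho 0.31).

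The sequence around the gene start was not itself used to choose the genes. Many genes of this set are transcribed by E2F factors, as said above. E2F-type motifs were searched on both strands in the forms TTTCGCGC, TTTGGCGC, TTTCCCGC and TTTGCCGC, of which TTTCGCGC and TTTGGCGC can overlap each other on opposite strands. The last of the 4 forms was found in 0 members. The windows were RefSeq promoters of build GRCm38.p6 (250 bases before to 50 after the gene start), which were at hand for 29 of the 39 members; a gene with several starts counted once. A motif lay in 12 of these 29 (41.4%), in 15 of 36 further replication genes (41.7%), in 3 of 42 genes of G2 and mitosis (7.14%), in 490 of 10085 genes of the expression table (4.86%) and in 704 of all 27025 genes with a promoter (2.60%). Members that were not in the promoter table are Dscc1, Gmnn, Usp1, Mcm4, Gins2, Rfc2, Exo1, Tipin, Atad2 and Ccne2. The 12 members are shown by 30 bases each around 1 match, in the direction of the gene and with the motif in capitals, to make its 2 directions and its flanks visible.
Casp8ap2: aagtaccagagTTTGGCGCcaactggaatc
Cdc6: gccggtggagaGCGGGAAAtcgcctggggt
Cdca7: tgcgtcccggcGCGGGAAAgccggtggccc
Clspn: accgcgtctggGCGCGAAAgctcgaacttc
Dtl: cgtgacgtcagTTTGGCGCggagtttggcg
Hells: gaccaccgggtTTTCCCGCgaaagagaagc
Mcm5: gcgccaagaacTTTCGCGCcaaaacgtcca
Mcm6: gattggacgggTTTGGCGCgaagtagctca
Pola1: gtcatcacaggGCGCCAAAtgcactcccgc
Pold3: gagcgaagctgTTTCCCGCcggcgggagct
Ubr7: cggcggccactTTTCCCGCctcctcctggg
Uhrf1: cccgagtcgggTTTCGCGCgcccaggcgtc

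The windows lie at chr4:32615283-32615312 (Casp8ap2, plus strand), chr11:98908002-98908031 (Cdc6, plus), chr2:72476137-72476166 (Cdca7, plus), chr4:126556990-126557019 (Clspn, plus), chr1:191575534-191575563 (Dtl, minus), chr19:38930917-38930946 (Hells, plus), chr8:75109345-75109374 (Mcm5, plus), chr1:128359734-128359763 (Mcm6, minus), chrX:93632275-93632304 (Pola1, minus), chr7:100121467-100121496 (Pold3, minus), chr12:102757968-102757997 (Ubr7, plus) and chr17:56304117-56304146 (Uhrf1, plus). Relative to the gene start, the match begins at positions from -185, in Uhrf1, to 21, in Clspn. Mcm5 and Mcm6 were the members with more than 1 match, 2 in Mcm5 and 3 in Mcm6. In both genes a pair of matches on opposite strands overlaps.

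The presence of a motif did not go with a closer following of the score. The median rho with the score of the other members was 0.46 in the 12 genes with a motif and 0.46 in the 17 genes whose promoter held none. Pcna, Rrm2 and Tyms were among those 17. A match is a stretch of letters and not a measured binding site, and a window without 1 of these 4 forms may hold others.

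The members differed in how they followed the genes of G2 and mitosis, a list of 48 genes such as Mki67 and Top2a, from which each cell was given a second score in the same way. Across the 49 cells the G1/S and G2/M scores had a rho of 0.39, and of 0.12 once the rank trend of both on the number of detected genes was removed. The G2/M score itself had a rho of 0.63 with the number of genes detected. When each score was split at its median, 15 cells were high in both, 9 high in G1/S only, 9 high in G2/M only and 16 low in both. The shallow cells 3 and 7 were among those high in G2/M only. The cells high in both had a median of 5872 detected genes, those high in G2/M only 5482, those high in G1/S only 4924 and those low in both 4414.

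**Figure D2:**
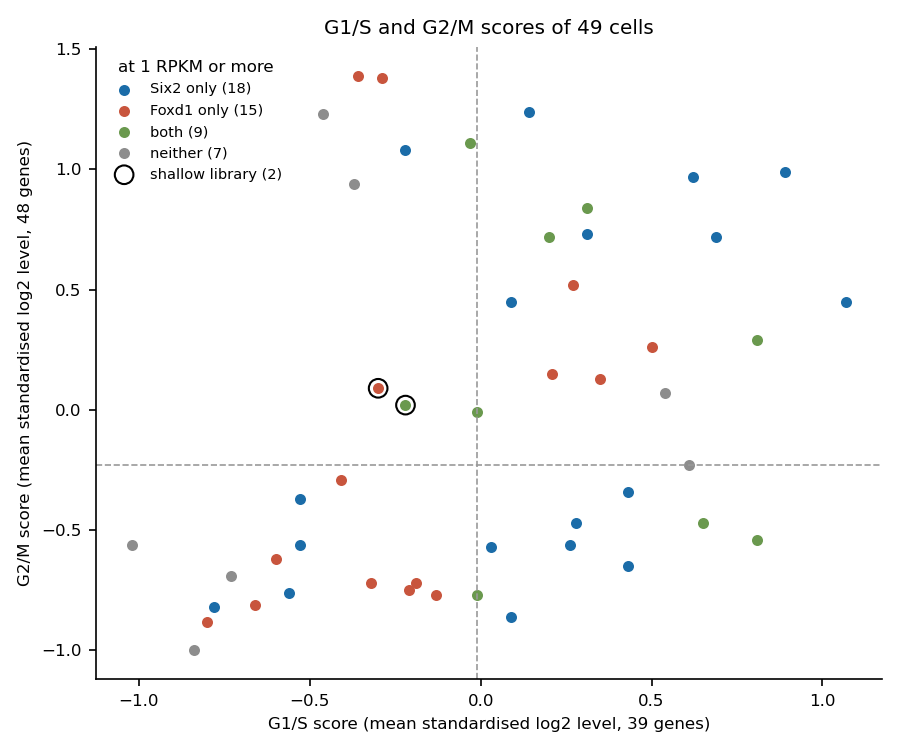
G1/S score (horizontal, mean standardised log2 level of the 39 genes) against G2/M score (vertical, of 48 genes) for the 49 cells, coloured by detection of Six2 and Foxd1, with the medians as dashed lines and the 2 shallow libraries circled. The lower right field, high in G1/S only, holds 6 Six2-only cells and 0 Foxd1-only cells.

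A pair of nucleotide supply genes and the flap endonuclease followed the G2/M score most. Rrm2 had a rho of 0.60 with it, Tyms 0.57, Fen1 0.54, Clspn 0.50 and Atad2 0.48, and 14 of the 39 had a rho of 0.30 or more. At the other end, 8 members had a rho below 0: Ung (-0.25), Mcm2 (-0.12), Slbp (-0.11), Chaf1b (-0.08), Mcm4 (-0.07), Mcm6 (-0.06), Dtl (-0.02) and Cdc6 (-0.02). Apart from that of Ung, these values lay between -0.12 and -0.02. The share of all genes of the table past either cut was not computed. The 14 genes had a median rho of 0.34 with the number of genes detected, against 0.03 for the 8, and its part in the split was not tested. Among themselves, the 14 had a median rho of 0.39, the 17 members in between 0.21 and the 8 0.27, against 0.24 over all member pairs. The groups were picked by their rho with 1 score over the same cells, which can itself raise the rho within a group. Whether they form subgroups was therefore not tested.

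**Figure D3:**
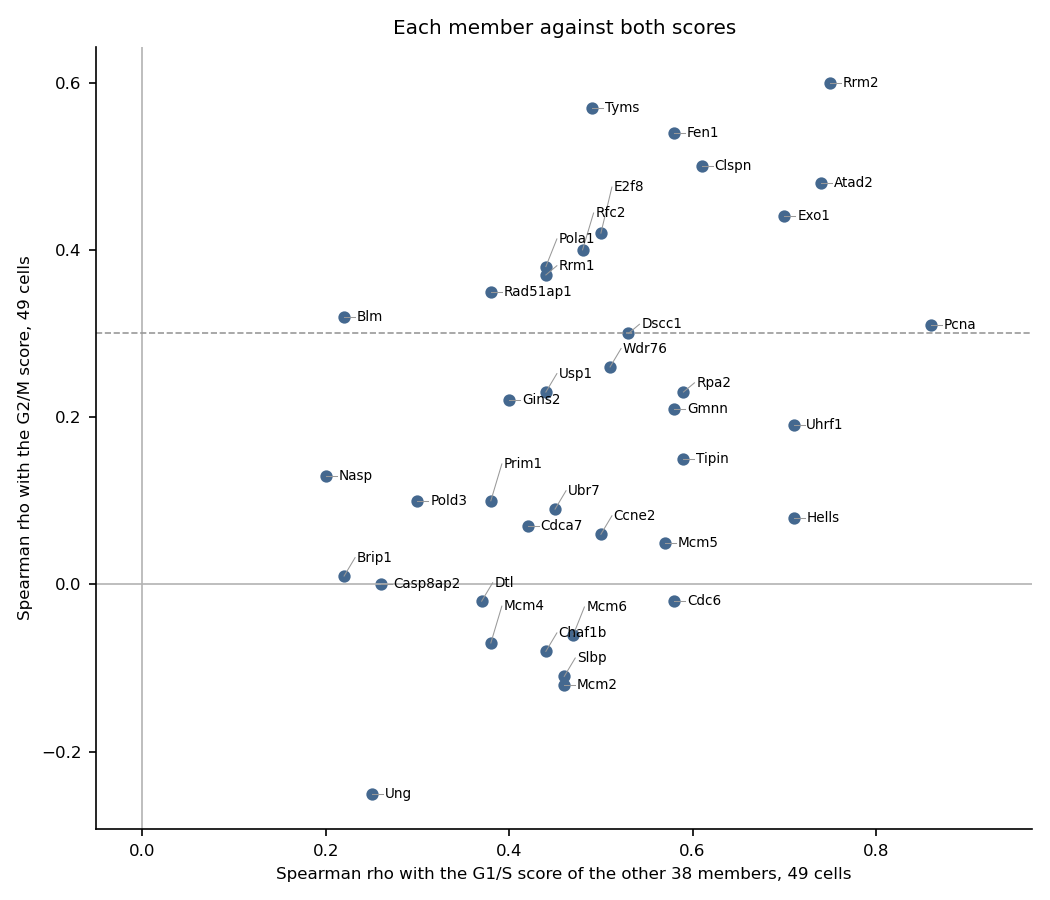
Spearman rho of each gene with the G1/S score of the other 38 genes (horizontal) and with the G2/M score (vertical) over 49 cells, with the rho of 0.30 as a dashed line. Rrm2 (0.75 and 0.60) stands at the upper right, Pcna (0.86 and 0.31) furthest right, and Ung (0.25 and -0.25) lowest.

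In RPKM, Rrm2 had a median of 207 in the 24 cells high in G2/M (lowest 0, highest 906) and of 3.80 in the 25 others (lowest 0, highest 462). Tyms ran from 12.6 through 66.6 to 335 RPKM in the high cells and from 0.668 through 12.9 to 103 RPKM in the low cells. Fen1 had medians of 39.4 RPKM in the high cells and 0.238 RPKM in the low cells, and was detected in 22 of 24 and 9 of 25. All 3 pairs of ranges overlapped. The difference of mean log2(RPKM + 1), high minus low, was 4.04 for Rrm2, 2.95 for Fen1 and 2.28 for Tyms. A difference above 1 was found in 17 of the 39 members, against 8.57% of all genes, and one below -1 in 0 members, against 1.23% of all genes. Among genes detected in at least 10 cells, which include all 39 members, the share above 1 was 13.0%. The median difference was 0.84 in the members and 0.14 in all genes. With 10 RPKM added before taking logs in place of 1, the 17 members became 6, against 1.15% of all genes.

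Within licensing and the helicase, the 4 Mcm genes and Cdc6 had differences below 0 in that comparison, while Gmnn was above 1 (1.15) and Gins2 at 0.96. Mcm2 had a median of 15.8 RPKM in the high cells (lowest 0, highest 531) and of 45.0 RPKM in the low cells (lowest 0, highest 403), a difference of -0.76. Mcm6 had medians of 45.1 RPKM in the high cells and 70.6 RPKM in the low cells (difference -0.67), and Mcm5 of 35.7 and 86.6 RPKM (difference -0.38). Ung was detected in 5 of 24 high cells and in 12 of 25 low cells (difference -0.80). None of these differences reached 1 in size, and the ranges overlapped.

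High G1/S scores were more frequent among Six2-only than among Foxd1-only cells. A cell was called Six2-only when Six2 was at 1 RPKM or more and Foxd1 below it, and Foxd1-only in the reverse case: 18 cells were Six2-only, 15 Foxd1-only, 9 had both and 7 neither. The classes bore their marker lists, which include Six2 and Foxd1 themselves, with a median of 9 of 12 nephron progenitor genes detected in Six2-only cells against 4 in Foxd1-only cells, and of 3 of 11 stromal genes against 10. Single cells of the classes were not cleanly apart. Detected progenitor genes ran from 7 to 11 in Six2-only cells and from 2 to 7 in Foxd1-only cells. Detected stromal genes ran from 1 to 9 in Six2-only cells and from 8 to 11 in Foxd1-only cells. Crym had a median of 521 RPKM in Six2-only cells (lowest 2.74, highest 1383) and of 1.96 RPKM in Foxd1-only cells (lowest 0.999, highest 358).

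The score was above the median of all cells in 13 of 18 Six2-only cells (72.2%, interval 46.5 to 90.3%), against 4 of 15 Foxd1-only cells (26.7%, interval 7.79 to 55.1%). The intervals overlap. Cell 25, which holds ureteric bud genes, is 1 of those 4, and without cells 12, 25 and 27 the shares were 76.5% of 17 Six2-only cells and 21.4% of 14 Foxd1-only cells. The score ran from -0.78 through a median of 0.20 to 1.07 in Six2-only cells, and from -0.80 through -0.29 to 0.50 in Foxd1-only cells. Of the cells with both genes, 5 of 9 were high, and of those with neither, 2 of 7. Splitting the cells by Crym gave the same order, with 18 of 30 cells high (60.0%) at 10 RPKM of Crym or more, against 6 of 19 (31.6%) below. The intervals, 40.6 to 77.3% and 12.6 to 56.6%, overlap. This split uses the same cells and scores. Crym itself differed between the classes, with medians of 521 and 1.96 RPKM, so the split is not a separate test. In all, 5 cells lay within 0.1 of the median that separates high from low.

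Six2-only cells had a median of 29.5 detected members, against 23 in Foxd1-only cells, while the medians of all detected genes were 4960 and 5232. Median estimated reads were 1924263 in Six2-only cells and 1818059 in Foxd1-only cells. The share of cells with a high G2/M score was 44.4% in Six2-only cells and 46.7% in Foxd1-only cells. Among cells with a low G2/M score, 6 of 10 Six2-only cells were high in G1/S against 0 of 8 Foxd1-only cells, and among cells with a high one, 7 of 8 against 4 of 7. The intervals were 26.2 to 87.8% against 0 to 36.9% for the low G2/M score. For the high one they were 47.3 to 99.7% against 18.4 to 90.1%, and both pairs overlap. With the rank trend of the score on the number of genes detected removed, the shares were 61.1% in Six2-only cells and 46.7% in Foxd1-only cells, so that the difference was 14.4 percentage points in place of 45.6.

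**Figure D4:**
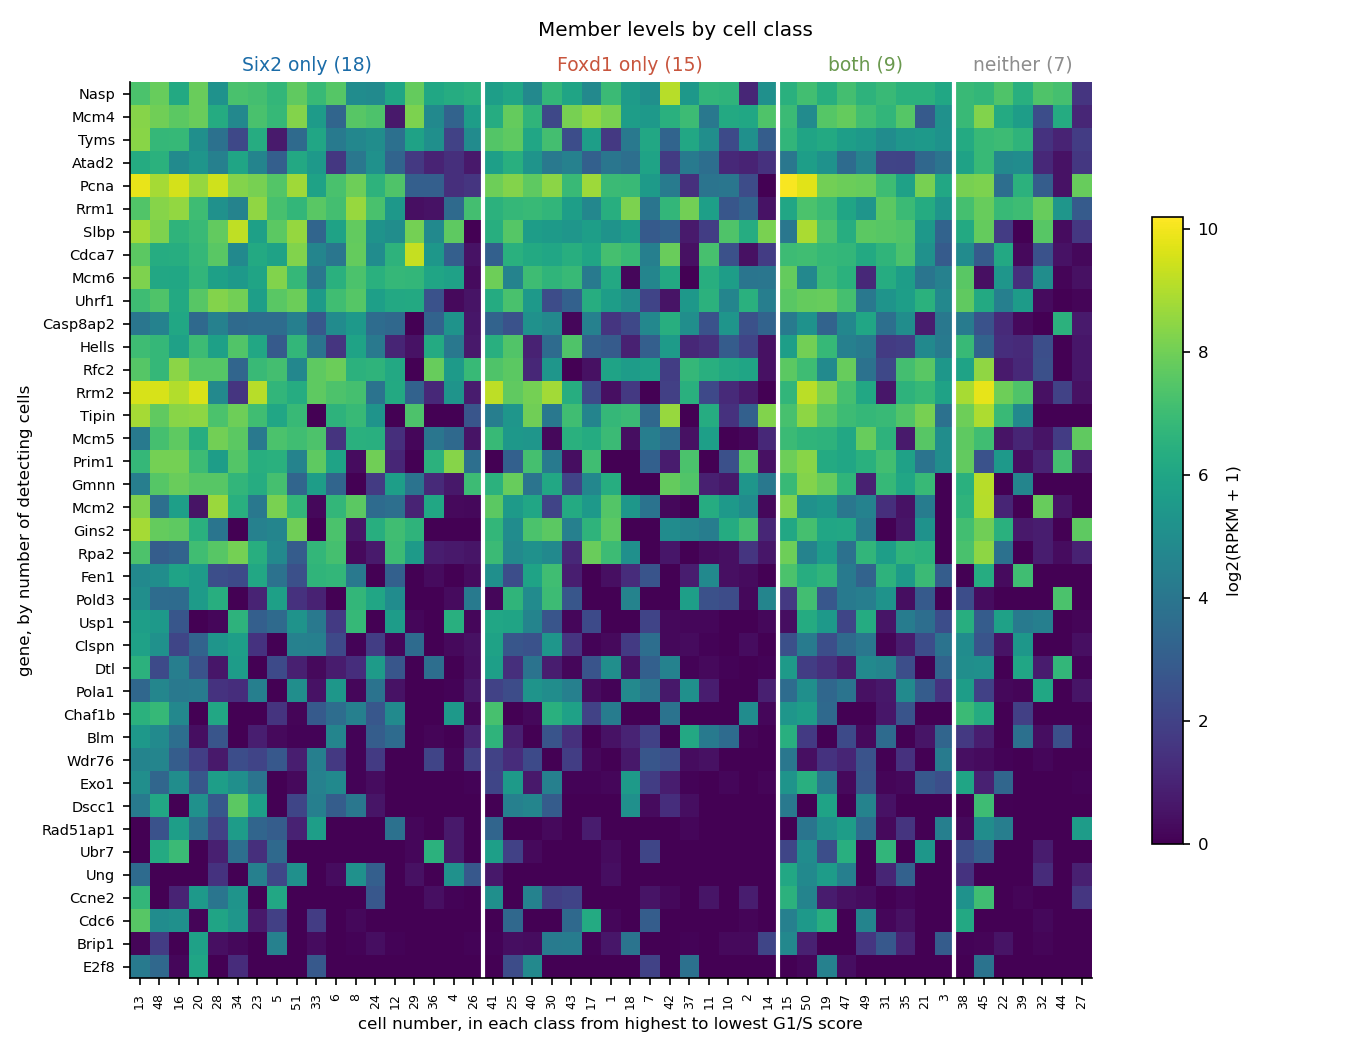
Level of each gene (rows, from most to least widely detected) as log2(RPKM + 1) in each cell (columns, by number), in 4 blocks by detection of Six2 and Foxd1 and within a block from highest to lowest G1/S score. The lower rows are mostly dark, and the Ung row is dark throughout the Foxd1-only block, where its highest value was 0.569 RPKM.

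Single members differed in how far they followed this order. Prim1 ran from 0 through a median of 91.4 to 323 RPKM in Six2-only cells and from 0 through 4.67 to 179 RPKM in Foxd1-only cells, and was detected in 16 of 18 and 8 of 15. Rrm2 ran from 0.697 through 91.6 to 789 RPKM in Six2-only cells and from 0 through 3.80 to 580 RPKM in Foxd1-only cells. Rfc2 ran from 0 through 118 to 342 RPKM in Six2-only cells and from 0 through 54.2 to 196 RPKM in Foxd1-only cells. In all 3 genes the ranges overlapped. The differences of mean log2(RPKM + 1), Six2-only minus Foxd1-only, were 2.77 for Prim1, 2.25 for Rrm2 and 1.92 for Rfc2.

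Ung and Rad51ap1, both of repair, differed mainly in detection. Ung was at 1 RPKM or more in 9 of 18 Six2-only cells, up to 34.8 RPKM, and in 0 of 15 Foxd1-only cells. An approximate upper limit for a count of 0, 3 divided by the 15 cells, is 20.0% of cells. The shallow cell 7 is 1 of the 15, and there a single Ung read would be worth 4.58 RPKM; the other 14 were below 1 RPKM as well. It was also found in 6 of the 9 cells with both markers and in 2 of the 7 with neither. Rad51ap1 was detected in 9 of 18 Six2-only cells (highest 52.1 RPKM), in 1 of 15 Foxd1-only cells (8.94 RPKM), in 6 of the 9 with both and in 3 of the 7 with neither. Foxd1-only cells thus stood low for both genes, while many Six2-only cells were at 0 as well. The differences of mean log2 were 1.81 for Ung and 1.78 for Rad51ap1.

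A difference above 1 was found in 16 of the 39 members, against 8.75% of all genes, and one below -1 in 0 members, against 7.78% of all genes. Among genes detected in at least 10 cells, which include all 39 members, the share above 1 was 13.0%. The median difference was 0.92 in the members and 0.00 in all genes, and 33 of the 39 were above 0. Beside the 5 genes above, the 16 hold Usp1 (1.57), Mcm5 (1.48), Rpa2 (1.35), Hells (1.35), Slbp (1.34), Pcna (1.28), Dscc1 (1.27), Fen1 (1.19), Uhrf1 (1.18), Mcm6 (1.11) and Cdca7 (1.02). Pcna ran from 1.60 through 209 to 933 RPKM in Six2-only cells and from 0 through 118 to 411 RPKM in Foxd1-only cells, and Mcm5 had medians of 83.4 RPKM in Six2-only cells and 19.8 RPKM in Foxd1-only cells. Wdr76 stayed just under the threshold (1.00 when rounded), and so did Ubr7 (0.98) and Nasp (0.95). The count depended on the value added before taking logs: with 10 RPKM in place of 1, 6 of the 39 members were above 1, against 1.57% of all genes. With a threshold of 5 RPKM for Six2 and Foxd1, the count was 10, of which 9 were among the 16, against 8.83% of all genes.

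Other members did not differ in this way. The 6 below 0 were Gins2 (-0.49), Brip1 (-0.34), Blm (-0.22), Mcm4 (-0.20), Pola1 (-0.17) and Tyms (-0.15). Gins2 was detected in 12 of 18 Six2-only cells and 13 of 15 Foxd1-only cells. Mcm2 was close to even, at 0.07. The subunits of the same ring therefore gave different values, from 1.48 for Mcm5 and 1.11 for Mcm6 to -0.20 for Mcm4, and the same was true of Rrm2 (2.25) and Rrm1 (0.65). Whether members differ from each other in this was not tested.

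**Figure D5:**
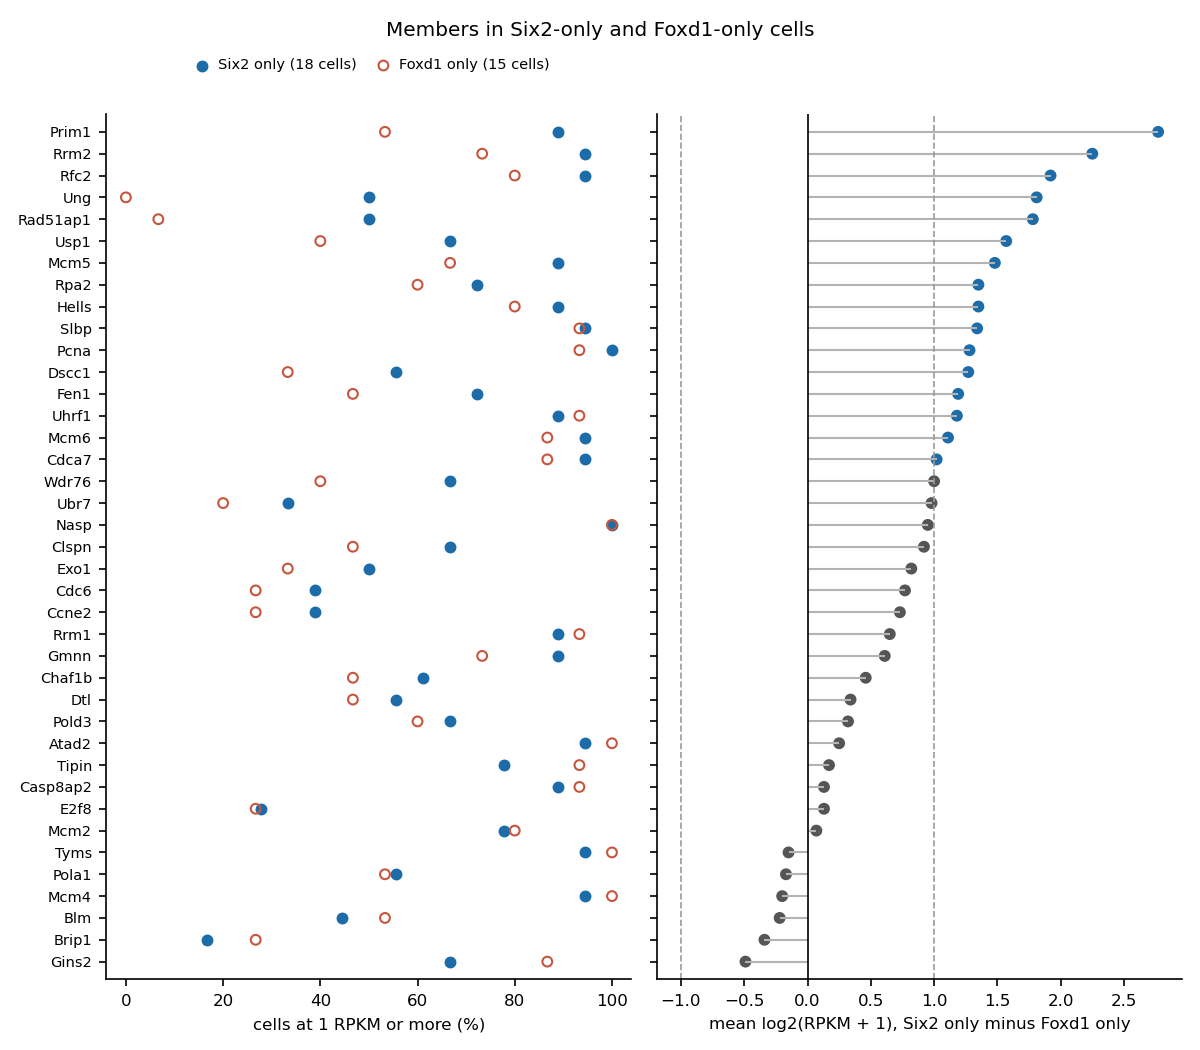
Left, share of cells at 1 RPKM or more in 18 Six2-only (filled) and 15 Foxd1-only cells (open) for each gene; right, the difference of mean log2(RPKM + 1), Six2-only minus Foxd1-only, with the threshold of 1 in either direction as dashed lines and genes past it in blue. Prim1 (2.77) lies furthest right and Gins2 (-0.49) furthest left, and Ung has 50.0% of Six2-only and 0% of Foxd1-only cells.

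Of the 42 further replication genes on the list, 13 were above 1 in this comparison, against 8.75% of all genes. A value below -1 was found in 0 of them, against 7.78% of all genes. Their median was 0.55, against 0.92 in the members. Of the 12 members with an E2F-type motif shown above, 5 were above 1 in Six2-only cells, and of the 17 without, 8. The share was 8.75% of all genes and 13.0% of those detected in at least 10 cells.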

How the data were processed

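The 39 genes, the gene lists and the tests were chosen with earlier results of these data known. RPKM values were computed by the authors and deposited for genes above 3 RPKM in at least 1 cell. The table's number of cells over that level, a score per gene deposited by the authors, matched a recount in all 13093 genes. The submitters' processing notes name TopHat 1.4.1, DESeq and the build mm9, without saying what each was used for. Not given in the sources used here are the tool that counted reads, the gene annotation and whether starts count from 0 or 1. No column of values per cell was unused (0 columns).

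Columns were matched to cells by cell number. No cell was left out, and no doublet caller was run: per the labels' protocols, capture chambers were inspected under a microscope. A gene counted as detected at 1 RPKM, levels were log2(RPKM + 1), a score was the mean standardised level over a list, and a difference of mean log2 past 1 was counted. Six2-only and Foxd1-only cells were defined at 1 RPKM. Correlations are Spearman's, for genes detected in at least 5 cells (10 for genes ranked against the score). Reads per cell were estimated from RPKM steps and GENCODE M21 exon lengths. The comparison of single genes between cells high and low in G2/M, and that of Six2-only with Foxd1-only cells within each of these, were added after the data were seen. Named genes are the 39 members, up to 8 further replication genes detected in most cells, and the 10 highest and 5 lowest by rho with the score, of which 1 of the lowest is not reported here. Promoters, matched by symbol, are RefSeq's of GRCm38.p6, a build other than that of the table, and were used for sequence only. Python 3.11.15, numpy 2.4.6, pandas 2.3.3, scipy 1.17.1 and matplotlib 3.10.9 were used, and the scripts were tested on simulated data. Alternatives were other detection thresholds, added values of 0.1 and 10 RPKM, low-value filters, cells left out, other cell classes, and removal of the trend on detected genes.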

Additional observations from a re-analysis of the deposited data

How the results depend on the processing

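The rho of the G1/S and G2/M scores, 0.39, was 0.12 once the trend on detected genes was removed, and between 0.36 and 0.41 under the other 6 alternatives. The difference in the share of high cells between Six2-only and Foxd1-only cells, 45.6 percentage points, was 31.1 with a stricter cut for high cells (44.4% of Six2-only and 13.3% of Foxd1-only cells passing), 60.0 among cells low in G2/M and 30.4 among cells high in G2/M. It kept its direction in all 14 alternatives and was lowest, at 14.4, with the trend on detected genes removed. The values of 60.0, 30.4 and 14.4, and 27.8 without the members that followed the G2/M score, are from alternatives added after the data were seen. The count of members above 1 in Six2-only cells, 16, was 6 with 10 RPKM added and 10 with a threshold of 5 RPKM for Six2 and Foxd1; the 17 of the G2/M comparison were 6 with 10 RPKM added. The cause of these shifts was not tested. The median rho among members was between 0.21 and 0.25 in all 7 alternatives. Among these, dropping the minimum of 5 detecting cells could not change it, because every member was detected in at least 11 cells. The median member was detected in 41 cells at a threshold of 0.1 RPKM and in 28 at 10 RPKM. The motif share was 24.1% with TTTCGCGC and TTTGGCGC only. Without the shallow cells 3 and 7, the share difference was 38.1 points and 17 members were above 1 (8.33% of all genes), of which 14 were among the 16; without cells 12, 25 and 27 these were 55.0 points and 22 members (9.28% of all genes). No paired analysis was possible because the cells form 1 group. Depth limits low genes: about 1 RPKM is a few reads in most cells, and less than 1 read of a median-length gene in the shallow cells, where detection at 1 RPKM has no meaning for a gene with no read. Single cells without molecular identifiers, from embryos that are not named, give no measure of variation between animals.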
